A study of Homo sapiens with 27 samples.

Results

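The genes described here are 9 members of the system that degrades extracellular matrix: the matrix metalloproteinase genes MMP1, MMP2, MMP3, MMP10, MMP12 and MMP14, and TIMP1, TIMP2 and TIMP3, which encode tissue inhibitors of metalloproteinases. They were taken by symbol from the gene identifiers of the count tables, and all 9 were found among the 60534 identifiers shared by the libraries, of which 19310 are annotated as protein coding. The cells were IMR90, an established line of human fetal lung fibroblasts, labelled wild type except in the thapsigargin libraries, whose labels give no genotype. RNA-seq and ribosome profiling (Ribo-seq, which sequences the RNA fragments protected by ribosomes) were made from the same kind of lysate. Of the 27 libraries, 13 are RNA-seq and 14 are Ribo-seq, and they cover 5 states.

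Cycling cells were collected at 40 to 60% confluency (2 RNA-seq and 3 Ribo-seq libraries). Quiescent cells had stopped dividing through contact inhibition (3 and 3). Irradiated cells were made senescent with 15 Gy of ionizing radiation and collected after 10 days (3 and 3). Etoposide cells were made senescent with 3 treatments of 50 µM etoposide, a topoisomerase II inhibitor, over 10 days (3 and 3). Thapsigargin cells were cycling cells given 25 nM thapsigargin, which blocks the calcium pump of the endoplasmic reticulum, for 3 h (2 and 2). All came from the same line and were grown in serum-containing medium, described without antibiotics and antimycotics for the thapsigargin cells. No label says that the replicates were separate cultures, so the p-values below measure only the spread between these libraries.

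Fibroblasts secrete matrix metalloproteinases as inactive zymogens, which are opened by other proteases. The collagenase MMP1 cuts fibrillar collagen, the stromelysins MMP3 and MMP10 cut a broad range of matrix proteins and can activate other zymogens, and the macrophage elastase MMP12 cuts elastin. MMP2, a gelatinase, is activated at the cell surface by the membrane-anchored MMP14 with the help of TIMP2. The TIMPs bind the active site of the mature enzymes, and secreted MMPs and TIMPs are widely described among the proteins that senescent fibroblasts release.

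MMP1 (ENSG00000196611), MMP3 (ENSG00000149968), MMP10 (ENSG00000166670) and MMP12 (ENSG00000262406) lie in a run of 9 MMP genes on chromosome 11, from 102520508 to 102955732 in GRCh38.p14, the order being MMP7, MMP20, MMP27, MMP8, MMP10, MMP1, MMP3, MMP12 and MMP13. MMP10 spans 11:102770502-102780628, MMP1 spans 11:102789919-102798160, MMP3 spans 11:102835801-102843609 and MMP12 spans 11:102862736-102874982. The other members lie apart: MMP2 (ENSG00000087245) at 16:55478830-55506691, MMP14 (ENSG00000157227) at 14:22836585-22847758, TIMP1 (ENSG00000102265) at X:47582436-47586789, TIMP2 (ENSG00000035862) at 17:78852977-78925387 and TIMP3 (ENSG00000100234) at 22:32801705-32863041. MMP1 and part of MMP3 overlap the pseudogene WTAPP1, TIMP1 lies inside SYN1, TIMP3 inside SYN3, and TIMP2 overlaps CEP295NL. Strand-specific counts were used in the main analysis, and unstranded counts only as an alternative.

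Of the 9 members, 4 matched an entry in the RefSeq promoter table (GRCh38.p14): MMP10, MMP14, TIMP1 and TIMP3. The 250 bases upstream of the start are shown for MMP10 and TIMP1, an enzyme and an inhibitor that were both higher in etoposide cells. For MMP10 (chr11:102780629-102780878, minus strand), capitals mark a match to TGANTCA, a consensus of AP-1 sites, 67 bases before the start. They also mark a TATAAA match 31 bases before the start. For TIMP1 (chrX:47582186-47582435, plus strand), capitals mark the 2 matches to GGGCGG, the GC box, here both on the other strand.
MMP10: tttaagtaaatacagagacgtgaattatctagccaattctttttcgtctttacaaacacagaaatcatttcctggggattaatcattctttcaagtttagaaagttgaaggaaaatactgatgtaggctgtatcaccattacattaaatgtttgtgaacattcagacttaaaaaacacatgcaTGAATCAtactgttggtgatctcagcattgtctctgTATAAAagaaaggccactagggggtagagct
TIMP1: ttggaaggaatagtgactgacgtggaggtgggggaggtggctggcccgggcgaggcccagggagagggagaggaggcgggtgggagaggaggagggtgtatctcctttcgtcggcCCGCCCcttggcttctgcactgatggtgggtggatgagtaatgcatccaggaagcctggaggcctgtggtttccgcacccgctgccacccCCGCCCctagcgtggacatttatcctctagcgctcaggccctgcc
No TGANTCA and no TATAAA match was found in this window of TIMP1, MMP14 or TIMP3. Only exact matches were searched, so AP-1 sites with other letters were not looked for. TIMP3 held 5 GC boxes and MMP14 held 1. With both strands searched, TGANTCA occurred in 6.57% of 35116 promoters in the same 250-base window, TATAAA in 10.7% and GGGCGG in 42.6%. The matches in MMP10 do not overlap each other.

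Gene counts ranged from 20635503 to 57119841 per RNA-seq library and from 1936976 to 19996104 per Ribo-seq library, with the thapsigargin Ribo-seq libraries lowest (1936976 and 2044900). The thapsigargin RNA-seq libraries also stood apart in that 1.35 to 1.40% of their reads were unmapped, against 27.8 to 40.6% in the other RNA-seq libraries. Each state was set against another by edgeR's quasi-likelihood F test over all protein-coding genes that passed the filter on low counts, with Benjamini-Hochberg adjustment and a call at an adjusted p under 0.05. Fold changes are log2 with their SE, levels are counts per 1000000 of the scaled library (CPM), and translational efficiency means Ribo-seq divided by RNA-seq. In each kind of test 8 of the 9 members passed the filter, MMP12 being the exception. The 8 fibroblast markers summed to 8872 to 14322 CPM in the RNA-seq libraries, while the 6 epithelial markers summed to at most 0.809 CPM and the 4 endothelial markers to at most 2.62 CPM. Because these are bulk samples, fewer cells that express a gene and less RNA per cell cannot be told apart.

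MMP1 was low in irradiated cells and near the cycling level in etoposide cells. Its RNA-seq level was 83.4 and 69.4 CPM in the cycling libraries and 12.6, 14.1 and 13.9 CPM in the irradiated ones. In etoposide libraries it was 78.5, 60.6 and 68.7 CPM, and in quiescent ones 34.8, 69.8 and 69.9 CPM. Every irradiated library lay below every library of the other states, and the etoposide and cycling libraries overlapped. MMP1 fell by 2.50 ± 0.25 on the log2 scale in irradiated against cycling cells (adjusted p = 5.68e-06) and by 2.11 ± 0.23 against quiescent cells (adjusted p = 3.59e-05). Etoposide against cycling cells gave -0.14 ± 0.24 (adjusted p = 0.686), and etoposide cells were higher than irradiated cells by 2.36 ± 0.23 (adjusted p = 5.77e-05). In all, 2 of the 8 tested members were called in irradiated against cycling RNA, both lower, where 18.8% of all genes tested were lower and 16.2% higher. Against quiescent cells 1 of 8 was called, lower, where 9.7% of genes were lower and 9.01% higher.

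Ribosome-protected fragments of MMP1 followed the same order of the senescent states. They stood at 215, 223 and 248 CPM in cycling, 24.1, 23.2 and 18.8 CPM in irradiated and 191, 146 and 172 CPM in etoposide libraries. In irradiated cells they fell by 3.37 ± 0.30 (adjusted p = 1.91e-06) against cycling and fell by 2.59 ± 0.30 (adjusted p = 5.61e-05) against quiescent cells, and etoposide exceeded irradiated cells by 2.94 ± 0.30 (adjusted p = 0.000103). In quiescent cells the 3 libraries gave 69.9, 182 and 149 CPM, all below the cycling libraries. That difference, -0.78 ± 0.26 (adjusted p = 0.0442), was the 1 member called of 8 in quiescent against cycling Ribo-seq, where 14.2% of genes were lower and 8.15% higher. It was not called without cycling replicate 1, 2 or 3 (adjusted p = 0.0786, 0.0875 and 0.134).

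MMP3 was close to silent outside etoposide cells. In RNA-seq it was at 1.24 and 1.14 CPM in cycling, 0.150, 0.793 and 3.06 CPM in quiescent, 0.493, 0.508 and 0.825 CPM in irradiated and 1.49 and 1.02 CPM in thapsigargin libraries. The etoposide libraries held 131, 51.7 and 54.1 CPM. The lowest of them lay above every library of the other states, and replicate 1 stood above the other two. MMP3 rose by 6.04 ± 0.77 in etoposide against cycling cells (adjusted p = 4.84e-05), by 5.90 ± 0.63 against quiescent cells (adjusted p = 1.18e-05) and by 7.01 ± 0.69 against irradiated cells (adjusted p = 5.77e-05). Against quiescent cells the value moved to 7.38 without quiescent replicate 3, the library at 3.06 CPM.

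The ribosome-protected fragments of MMP3 gave 244, 102 and 114 CPM in etoposide against 2.16, 2.33 and 1.27 CPM in cycling libraries. The irradiated libraries, with 3, 2 and 6 counts, stood at 0.532, 0.760 and 1.74 CPM. The rise was 6.28 ± 0.75 over cycling (adjusted p = 2.19e-05), 6.33 ± 0.72 over quiescent (adjusted p = 2.25e-05, and 7.72 without quiescent replicate 3) and 7.32 ± 0.93 over irradiated cells (adjusted p = 0.000283, and 7.95 without irradiated replicate 3). Thapsigargin replicate 1 held 31 MMP3 counts and replicate 2 held 0, so no direction can be read for that state: the estimate of 2.09 ± 1.10 (adjusted p = 0.137) turned to -7.24 without replicate 1 and was called without replicate 2 (3.10, adjusted p = 0.0359).

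**Figure D1:**
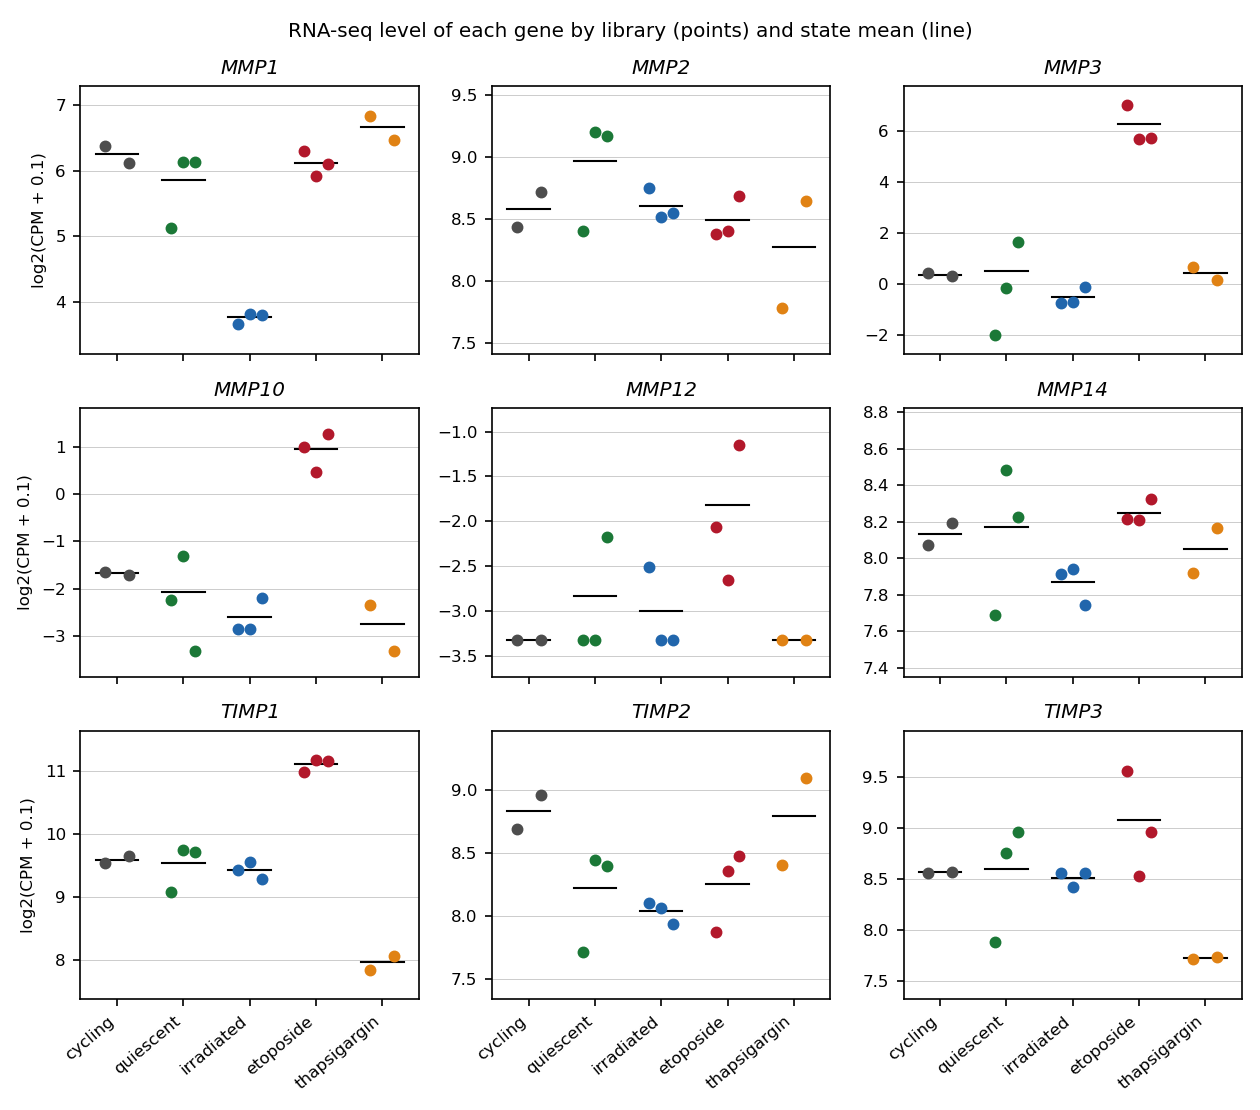
RNA-seq level of the 9 genes, as log2 of CPM plus 0.1 on the vertical axis, in each library (points) of the 5 states, with the line at the log2 of the state mean. MMP3, MMP10 and TIMP1 are highest in the 3 etoposide libraries, MMP1 is lowest in the 3 irradiated ones, and TIMP1 and TIMP3 are lowest in the 2 thapsigargin ones, where TIMP1 stands at 232 and 269 CPM.

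MMP10, the second stromelysin, was rare and was likewise highest in etoposide cells. RNA-seq gave 1.89, 1.27 and 2.32 CPM there (54, 43 and 86 counts) against 0.219 and 0.208 CPM in cycling libraries (6 and 4 counts). The quiescent, irradiated and thapsigargin libraries held 0 to 8 counts each, and all lay below the etoposide libraries. The rise was 3.07 ± 0.77 over cycling (adjusted p = 0.00760), 3.66 ± 0.69 over quiescent (adjusted p = 0.000905, and 4.88 without quiescent replicate 2) and 4.74 ± 0.78 over irradiated cells (adjusted p = 0.000941, and 5.43 without irradiated replicate 3). The call over cycling was lost without cycling replicate 1 or 2, which leaves a single cycling library (adjusted p = 0.0798 and 0.0629), at nearly the same size (3.11 and 3.03). MMP10 passed the filter on low counts through the etoposide libraries alone, in both kinds of library. A gene that passes in this way has to differ, so the adjusted p values of its etoposide comparisons, here and in Ribo-seq, are not evidence for the rise. MMP10 is left out of the counts of etoposide calls given below, except in the closing section on processing.

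Ribosome-protected fragments of MMP10 reached 17.8, 6.66 and 12.3 CPM in etoposide libraries, against 0.411, 0.565 and 0.423 CPM in cycling ones. Here the rise over cycling cells was 4.64 ± 0.48 (adjusted p = 1.00e-05), and it was 4.42 ± 0.44 over quiescent (adjusted p = 1.10e-05) and 4.81 ± 0.60 over irradiated cells (adjusted p = 0.000315). No fold is given for MMP10 between the other states, where it held 0 to 15 counts per library.

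MMP12 did not reach the filter in either kind of library. Over all RNA-seq libraries of a state it had 19 counts in etoposide (4, 2 and 13), 3 in quiescent, 2 in irradiated and 0 in cycling and in thapsigargin cells. The pooled etoposide level was 0.191 CPM (exact Poisson 95% interval 0.115 to 0.298 CPM). This was 2.97 times a floor of 3 counts over the cycling libraries together (0.0643 CPM). The upper 95% limit of the cycling level was 0.0790 CPM, above that floor, so 2.97 is not a lower limit. Without etoposide replicate 3, which held 13 of the 19 counts, the level was 1.49 times the floor, an alternative chosen after seeing the data. In Ribo-seq the counts were 7 in etoposide, 2 in quiescent, 1 in cycling and 0 in irradiated and thapsigargin cells, where a floor of 3 counts over the thapsigargin libraries is 0.804 CPM. These intervals and floors cover counting error only. MMP12 is known from macrophages, so blood cell markers were read beside it: their summed RNA-seq level was 1.54 to 1.91 CPM in etoposide libraries and at most 0.667 CPM in all others. In etoposide cells none of the 8 was at 0 counts, with PTPRC at 0.724, CD14 at 0.400 and LYZ at 0.377 CPM on average. In cycling cells 4 of the 8 were at 0. CSF1R, CD68 and AIF1 were not highest in etoposide cells. CSF1R was at 0.100 CPM there, 0.151 in cycling and 0.235 in thapsigargin cells. CD68 was at 0.0117 CPM in etoposide and 0.0507 in thapsigargin cells, and AIF1 at 0.0188 CPM in etoposide and 0.0249 in quiescent cells. Their part in the MMP12 and MMP10 values was not tested.

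MMP2 and MMP14, the gelatinase and its membrane-bound activator, passed no RNA-seq test among the 7 comparisons. MMP2 RNA was 345 and 421 CPM in cycling, 431, 365 and 373 CPM in irradiated and 333, 338 and 410 CPM in etoposide libraries, which overlap. MMP14 RNA was 269 and 293 CPM in cycling, 241, 246 and 214 CPM in irradiated and 297, 295 and 320 CPM in etoposide libraries, so that the irradiated libraries lay below both others without a call (-0.26 ± 0.18 against cycling, adjusted p = 0.270). In Ribo-seq MMP14 gave 382, 408 and 443 CPM in cycling and 213, 235 and 239 CPM in irradiated libraries, and fell by 0.85 ± 0.26 (adjusted p = 0.0183). This call was lost without cycling replicate 3 (adjusted p = 0.0565) or irradiated replicate 1 (adjusted p = 0.0600). MMP14 Ribo-seq was higher in etoposide than in irradiated cells by 0.81 ± 0.26 (adjusted p = 0.0375), a call that did not survive leaving out any 1 of the 6 libraries (adjusted p from 0.0538 to 0.123). MMP2 Ribo-seq was not called among the cycling, quiescent and senescent states.

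TIMP1 was the inhibitor that rose with etoposide. Its RNA-seq level was 744 and 802 CPM in cycling, 542, 863 and 844 CPM in quiescent and 690, 752 and 628 CPM in irradiated libraries. The etoposide libraries held 2020, 2305 and 2276 CPM, well clear of all others. TIMP1 was higher in etoposide cells by 1.51 ± 0.18 against cycling (adjusted p = 3.16e-05), by 1.55 ± 0.16 against quiescent (adjusted p = 8.29e-06) and by 1.67 ± 0.16 against irradiated cells (adjusted p = 5.41e-05). In irradiated against cycling cells the value was -0.16 ± 0.17 (adjusted p = 0.50).

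Ribo-seq repeated this separation for TIMP1, with 3759, 4202 and 4164 CPM in etoposide against 1157, 1360 and 1718 CPM in cycling and 1097, 1091 and 1128 CPM in irradiated libraries. The difference was 1.52 ± 0.29 from cycling (adjusted p = 0.00125), 1.83 ± 0.30 from quiescent (adjusted p = 0.000375) and 1.87 ± 0.30 from irradiated cells (adjusted p = 0.000987).

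TIMP2 was lower in irradiated than in cycling cells. RNA-seq gave 412 and 498 CPM in cycling libraries, 275, 268 and 246 CPM in irradiated, 235, 327 and 356 CPM in etoposide and 210, 348 and 337 CPM in quiescent ones, all of them below the cycling libraries. It fell by 0.79 ± 0.24 in irradiated cells (adjusted p = 0.0192). The call was lost without cycling replicate 2 (-0.65, adjusted p = 0.145) or irradiated replicate 3 (-0.74, adjusted p = 0.0628). Etoposide cells gave -0.57 ± 0.24 (adjusted p = 0.0779) and quiescent cells -0.61 ± 0.24 (adjusted p = 0.106), neither called. TIMP2 Ribo-seq was 275, 269 and 324 CPM in cycling and 153, 135 and 148 CPM in irradiated libraries, a fall by 0.99 ± 0.26 (adjusted p = 0.00768).

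TIMP3, which unlike the other TIMPs stays bound to the matrix, passed no RNA-seq test. Its etoposide libraries were spread over 755, 369 and 499 CPM around the cycling values of 378 and 380 CPM. In Ribo-seq the same libraries by number read 862, 433 and 525 CPM, and the quiescent ones 135, 329 and 445 CPM. Etoposide exceeded quiescent cells by 1.00 ± 0.32 (adjusted p = 0.0272). The call was lost without quiescent replicate 2 (1.06, adjusted p = 0.0541) or etoposide replicate 1 (0.67, adjusted p = 0.154).

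**Figure D2:**
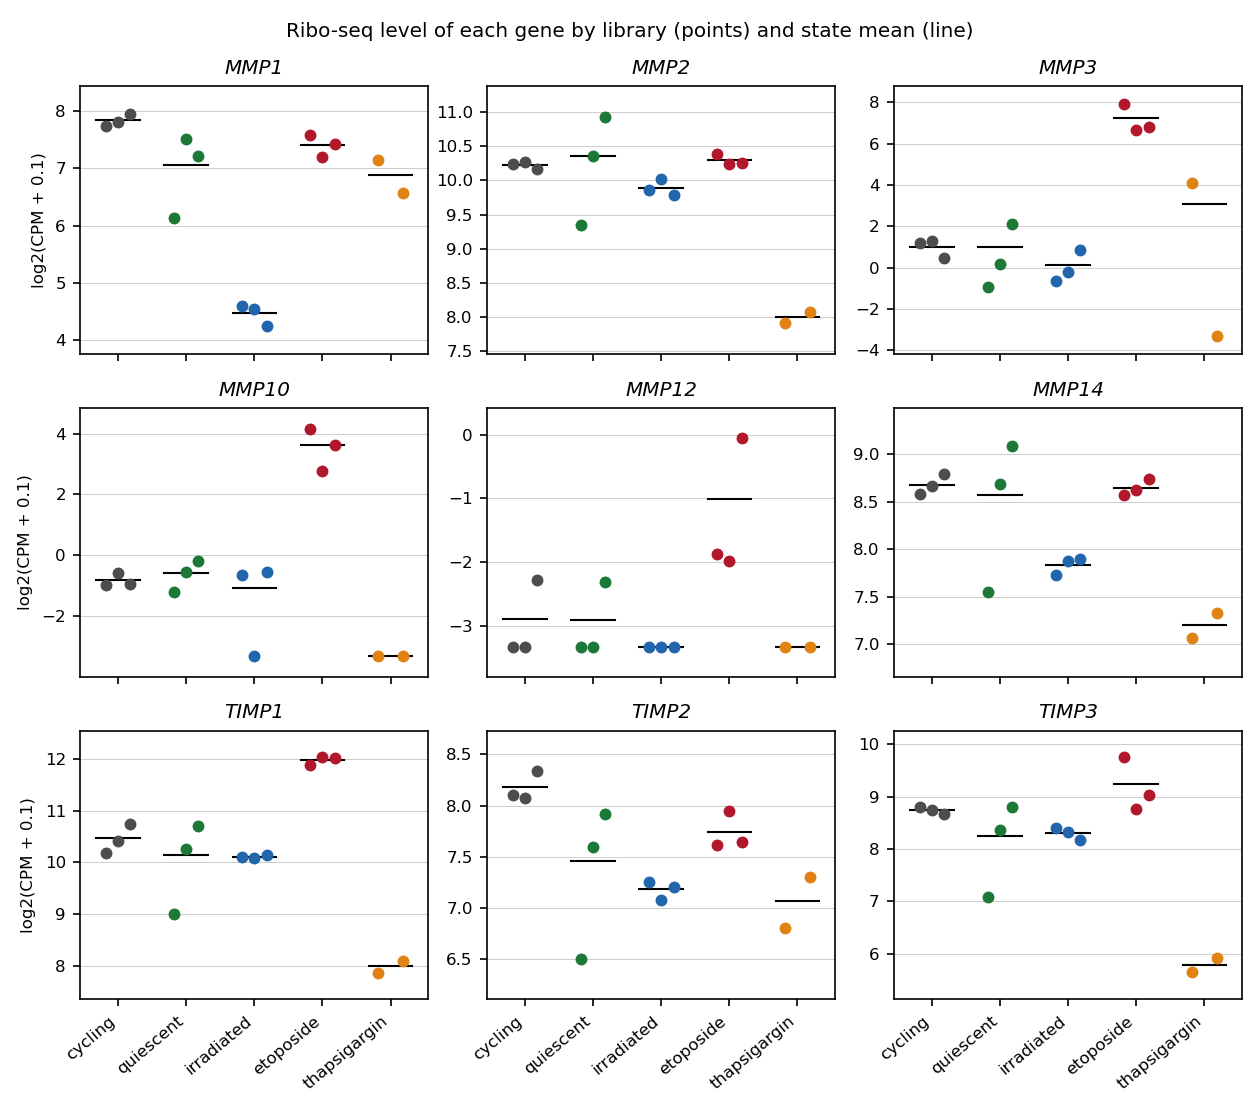
Ribo-seq level of the 9 genes, as log2 of CPM plus 0.1, in each library (points) of the 5 states, with the line at the log2 of the state mean. MMP2, MMP14, TIMP1 and TIMP3 are lowest in the 2 thapsigargin libraries, and quiescent replicate 1 is the lowest quiescent library for 8 genes and shares 0 counts with replicate 2 for MMP12.

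Of the 7 members that passed the filter without the etoposide libraries, 2 were higher in etoposide against cycling RNA (MMP3 and TIMP1) and none lower, where 16.8% of all genes were higher and 17.8% lower. The same 2 were higher in Ribo-seq, where 16.8% of genes were higher and 17.1% lower. Against quiescent cells 2 of 7 were higher in RNA, beside 21.1% of genes higher and 20.6% lower, and 3 of 7 in Ribo-seq, beside 19% and 16.8%. Against irradiated cells 3 of 7 were higher in RNA (MMP1, MMP3 and TIMP1), beside 12.9% of genes higher and 9.67% lower. In Ribo-seq 4 of 7 were (with MMP14), beside 13.7% and 8.82%, and none was lower. In irradiated against cycling Ribo-seq 3 of the 8 tested members were lower (MMP1, MMP14 and TIMP2), beside 21.6% of genes lower and 19% higher. Against quiescent cells 1 of 8 was lower (MMP1), beside 7.33% lower and 7.22% higher. The median change of the 7 members in etoposide over irradiated cells was 0.56 in RNA and 0.95 in Ribo-seq, where the median of all genes tested was -0.06 in both. Comparisons that name the same state share its libraries and are not separate evidence.

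**Figure D3:**
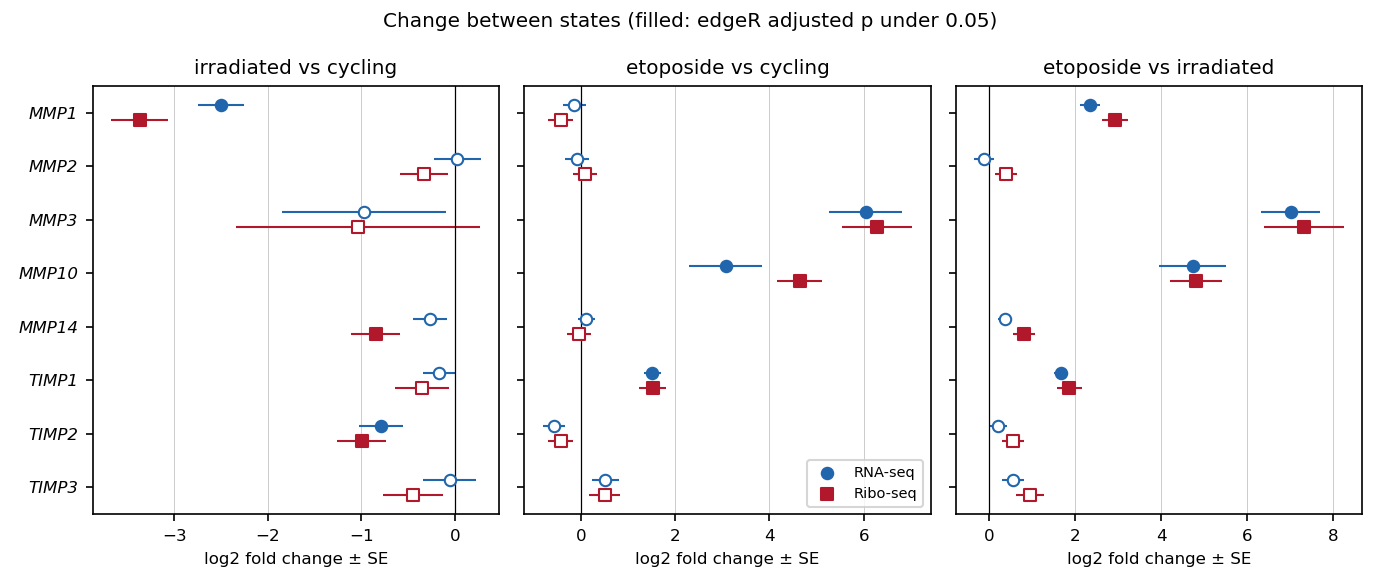
Change of each tested member (log2 fold change with SE bars, horizontal axis) in RNA-seq (circles) and Ribo-seq (squares) for irradiated against cycling, etoposide against cycling and etoposide against irradiated cells, filled where called. MMP3, MMP10 and TIMP1 are filled in both kinds of library in the etoposide panels, though MMP10 passed the filter only through the etoposide libraries. MMP1 is filled on the left for irradiated cells, and MMP10 has no point there because of its low counts.

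The comparison of quiescent with cycling cells had the fewest calls. No member was called in RNA-seq by edgeR or by DESeq2, with 1 of 8 at an unadjusted p under 0.05, while 15.6% of all genes were called. Within the quiescent group, replicate 1 alone was the lowest library for 7 of the 9 members in RNA-seq and for 8 in Ribo-seq, and for MMP12 it shared 0 counts with replicate 2. Without that Ribo-seq library, 4 members instead of 1 were called in irradiated against quiescent cells, among them MMP14 (-1.08, adjusted p = 1.15e-05, against -0.74 and adjusted p = 0.0753 with it). Without the same number in RNA-seq 2 members instead of 1 were called there. The share of all genes called in these fits is not given, so these counts do not set the members apart from other genes.

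After thapsigargin the ribosome-protected fragments of most members were lower, and 1 of them also fell in RNA. In RNA-seq only TIMP1 was called of 8 members, lower, where 12.8% of genes were lower and 11.7% higher. TIMP1 stood at 232 and 269 CPM, below all cycling, quiescent and senescent libraries, and fell by 1.63 ± 0.19 (adjusted p = 6.79e-05). MMP1 RNA, at 114 and 88.9 CPM, lay above both cycling libraries without a call (0.41 ± 0.26, adjusted p = 0.284), and TIMP3 RNA, at 211 and 213 CPM, lay below both (-0.84 ± 0.31, adjusted p = 0.0674).

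In Ribo-seq 6 of 8 members were lower after thapsigargin and none higher, where 23.6% of all genes were lower and 21.1% higher. TIMP3 dropped from 448, 429 and 408 CPM to 49.8 and 60.4 CPM, a change of -2.96 ± 0.43 (adjusted p = 0.000150). TIMP1 fell by 2.48 ± 0.36 (adjusted p = 0.000140), with 233 and 274 CPM left. MMP2 went from 1205, 1229 and 1144 CPM to 239 and 269 CPM (-2.23 ± 0.32, adjusted p = 0.000118), and MMP14 to 134 and 161 CPM (-1.48 ± 0.31, adjusted p = 0.00189). The thapsigargin libraries of these 4 genes lay below the libraries of every other state. TIMP2, at 112 and 157 CPM, fell by 1.10 ± 0.31 (adjusted p = 0.0104). The call was lost without thapsigargin replicate 1, which leaves a single thapsigargin library (-0.92). MMP1, at 142 and 94.5 CPM, fell by 0.95 ± 0.31 (adjusted p = 0.0230). That call was lost without cycling replicate 3 (-0.89, adjusted p = 0.0564) or thapsigargin replicate 2 (-0.70). The median of the 7 members that passed the filter without the etoposide libraries was -1.48, beside -0.08 for all genes tested. In the same comparison 7 of the 8 fibroblast markers were lower, with a median of -2.20. Reads mapping to several places made up 65.2 and 66.9% of the thapsigargin Ribo-seq libraries, against 19.8 to 31.9% of the others. Of the reads mapped to 1 place, 12.8 and 11.4% lay outside annotated features, against 1.45 to 2.93% in the other Ribo-seq libraries. The part of these library differences in the members' fall was not tested.

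Whether Ribo-seq moved more than RNA was tested in a joint fit of both kinds of library. Translational efficiency was lower after thapsigargin for 4 of 8 members, where it was lower for 12.9% of all genes and higher for 7.87%, and for none was it higher. The change was -2.17 ± 0.52 for TIMP3 (adjusted p = 0.00487), -1.97 ± 0.41 for MMP2 (adjusted p = 0.00171), -1.45 ± 0.36 for MMP14 (adjusted p = 0.00597) and -1.42 ± 0.40 for MMP1 (adjusted p = 0.0155). The median over all genes tested was -0.15. The MMP1 call was lost without RNA-seq cycling replicate 2, RNA-seq thapsigargin replicate 1 or Ribo-seq thapsigargin replicate 2 (adjusted p = 0.0631, 0.0624 and 0.0606). TIMP1, whose RNA fell as well, gave -0.90 ± 0.39 (adjusted p = 0.0993) and TIMP2 -1.11 ± 0.40 (adjusted p = 0.0504), the latter called without RNA-seq thapsigargin replicate 1 (-1.38, adjusted p = 0.0256) or Ribo-seq thapsigargin replicate 2 (-1.40, adjusted p = 0.0292). The thapsigargin libraries were deposited with their own growth medium and, in Ribo-seq, the lowest depth. In Ribo-seq they were also counted on a list of 62703 gene identifiers, the one of all RNA-seq libraries, against 60664 for the other Ribo-seq libraries. Only identifiers shared by both lists were used. These differences cannot be told apart from the treatment.

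**Figure D4:**
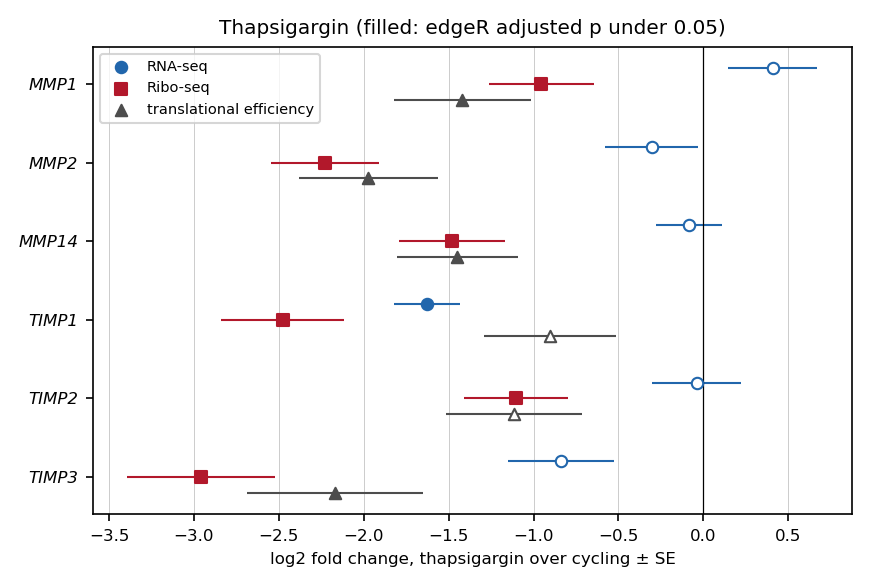
Change after thapsigargin (log2 fold change over cycling cells with SE bars, horizontal axis) of 6 members in RNA-seq (circles), Ribo-seq (squares) and translational efficiency (triangles), filled where called. Ribo-seq is filled for all 6 genes and RNA-seq for TIMP1 alone, and the efficiency is filled for MMP1, MMP2, MMP14 and TIMP3.

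Among cycling, quiescent and senescent cells no change in translational efficiency was called for a member in the main analysis. Neither edgeR nor DESeq2 called any of the 8 in quiescent, irradiated or etoposide against cycling cells or in etoposide against irradiated cells, and none reached an unadjusted p under 0.05 in edgeR. Over all genes edgeR called 0.00854%, 0.0512%, 0.0683% and 0% of those tested in these 4 comparisons. For etoposide against irradiated cells, the comparison with no call, 770 genes had an unadjusted p under 0.05 in edgeR and DESeq2 called 6. The largest irradiated value with adequate counts was that of MMP1, at -0.78 ± 0.38 (adjusted p = 0.750). It was called when only the irradiated and cycling libraries were fitted (-0.91, adjusted p = 0.00201), and under no other setting. Fits of only the groups compared called 2 members in irradiated against cycling cells and 3 in etoposide against irradiated cells. The share of all genes called in those fits is not given.

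Ratios of 2 genes within a library do not depend on how libraries are scaled, and they are read here across states only, since the genes differ in length. The log2 ratio of MMP1 to TIMP1 counts in RNA-seq averaged -3.34 in cycling (-3.53 to -3.16), -5.67 in irradiated (-5.78 to -5.50) and -4.99 in etoposide cells (-5.25 to -4.69). Thus both senescent states lay below cycling and quiescent libraries, with MMP1 lower in irradiated and TIMP1 higher in etoposide cells. After thapsigargin the ratio was higher than in any other library, at -1.60 and -1.02. Ribo-seq gave the same order, with means of -2.61 in cycling, -5.66 in irradiated, -4.58 in etoposide and -1.13 in thapsigargin cells.

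The ratio of the stromelysin MMP3 to the collagenase MMP1 averaged 0.06 in etoposide RNA (-0.35 to 0.74) and was at most -4.07 in every other RNA-seq library. The ratio of TIMP1 to TIMP2 averaged 2.87 in etoposide RNA (2.68 to 3.11), 0.77 in cycling (0.69 to 0.85) and -0.79 in thapsigargin cells (-1.03 to -0.55). For MMP2 to TIMP2, the pair that meets at MMP14, the RNA ratio was -0.25 in cycling, 0.74 in quiescent, 0.56 in irradiated and 0.25 in etoposide cells, each of the latter libraries lying above both cycling libraries. No test was run on the ratios.

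**Figure D5:**
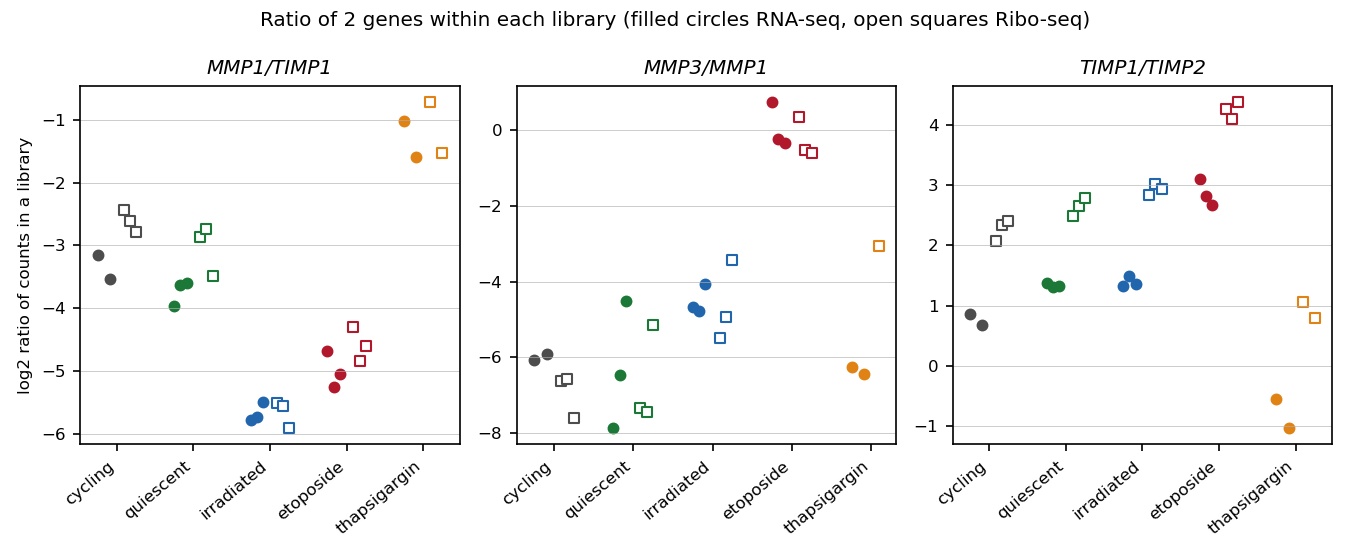
Log2 ratio of the counts of 2 genes within each library (vertical axis) for MMP1 over TIMP1, MMP3 over MMP1 and TIMP1 over TIMP2, by state, with filled circles for RNA-seq and open squares for Ribo-seq. The MMP3 to MMP1 ratio is near 0 in the etoposide libraries and negative elsewhere, and thapsigargin Ribo-seq replicate 2, with 0 MMP3 counts, has no point there.

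Genes that act on this system were read from lists, beside the background shares given above. Of 12 genes that control metalloproteinase activity, 11 were tested in RNA. In etoposide against cycling cells 5 of them were higher and 1 lower, with a list median of 0.94 beside 0.00 for all genes. These include A2M, a protease-trapping protein (3.64 ± 0.59, adjusted p = 0.000370, from a cycling level of 0.177 CPM), TFPI2, an inhibitor of serine proteases (3.40 ± 0.56, adjusted p = 0.000379), PLAT, the tissue plasminogen activator (1.52 ± 0.29, adjusted p = 0.00111) and RECK, a membrane-anchored inhibitor of MMPs (1.08 ± 0.27, adjusted p = 0.00801). In irradiated cells 1 was higher (A2M, 4.84 ± 0.58, adjusted p = 2.96e-05) and 5 lower, among them FURIN, a protease that opens the MMP14 zymogen (-1.09 ± 0.16, adjusted p = 0.000153), and PLAU, the urokinase (-1.01 ± 0.23, adjusted p = 0.00354). The list median there was -0.64, beside 0.03 for all genes. Ribo-seq gave 5 higher and 1 lower of 10 in etoposide and 1 higher and 5 lower of 10 in irradiated cells.

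Of the 17 other MMP genes only 8 were tested in RNA and 5 in Ribo-seq. In irradiated cells MMP16 (-1.89 ± 0.27, adjusted p = 0.000117), MMP19 (-1.24 ± 0.20, adjusted p = 0.000331) and MMP17 (-1.14 ± 0.21, adjusted p = 0.000861) were lower and MMP24 was higher (0.91 ± 0.28, adjusted p = 0.0214). In etoposide cells 2 were higher (MMP24 and MMP15) and 2 lower (MMP17 and MMP19). After thapsigargin MMP15 and MMP17 RNA were higher (1.87 ± 0.33, adjusted p = 0.00120, and 0.84 ± 0.22, adjusted p = 0.0136), while their Ribo-seq counts were 0 in both thapsigargin libraries, against 97 and 90 over the 3 deeper cycling ones. MMP9, the other gelatinase, had at most 2 RNA-seq counts in any state.

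The matrix proteins these enzymes cut were read as 10 genes. In irradiated against cycling cells 4 were lower in RNA and 8 in Ribo-seq, none higher, and in etoposide cells 3 and 1 were lower. After thapsigargin 6 were lower in RNA and 9 in Ribo-seq, with COL1A2 Ribo-seq at -3.84 ± 0.34 (adjusted p = 2.31e-06), and a list median of -2.64 beside -0.08 for all genes. Of 12 genes for AP-1 and ETS factors and inducing cytokines, 11 were tested. Etoposide against cycling RNA gave 2 higher and 2 lower, with ETS2 at 1.00 ± 0.11 (adjusted p = 1.25e-05), the cytokine IL1B at 1.72 ± 0.37 (adjusted p = 0.00295) ETS1 at -0.90 ± 0.15 (adjusted p = 0.000553) and JUND at -0.54 ± 0.17 (adjusted p = 0.0271). Thapsigargin gave 6 higher and 2 lower, with ETS1 at 1.58 ± 0.17 (adjusted p = 3.46e-05), ETS2 at 0.98 ± 0.12 (adjusted p = 6.79e-05), FOSB at 3.49 ± 0.61 (adjusted p = 0.00129) and IL1B at -4.15 ± 0.51 (adjusted p = 8.83e-05).

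As a description of likeness, Pearson's r of log2 CPM was taken between each tested member and every other tested gene over the 13 RNA-seq libraries, which share states, so that r mostly follows differences between states. The nearest gene to MMP3 was TFPI2 (r = 0.97), followed by SERPINE2 (0.97), and TIMP1 was nearest to HGF (0.96). MMP1 was nearest to MARCHF3 (0.95), TIMP2 to SLC1A4 (0.94), TIMP3 to LAMA2 (0.94), MMP2 to SALL1 (0.93), MMP10 to ADGRF4 (0.91) and MMP14 to PXDN (0.90). Between members, MMP3 and MMP10 gave 0.83, MMP10 and TIMP1 0.81, and TIMP1 and TIMP3 0.81, while TIMP1 and TIMP2 gave -0.23 and MMP1 and TIMP1 0.01. Over the 14 Ribo-seq libraries the nearest gene to TIMP1 was RECK (0.98), and MMP2 and TIMP3 gave 0.94.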

How the data were processed

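RNA-seq and Ribo-seq read counts per gene were deposited by the authors as 1 table per library, with unstranded and strand-specific columns; the submitters' processing notes name STAR 2.7.10b, hg38, bcl2fastq and DESeq2 1.36.0. Per the labels, a strand-keeping kit was used for RNA-seq, and Ribo-seq fragments were 25 to 40 nucleotides long. Reverse-strand counts served for RNA-seq, forward-strand counts for Ribo-seq. Reads not counted for a gene made up 28.9 to 85.7% of a library and were left out of library sizes. They were unmapped, mapped to several places, ambiguous between genes or outside annotated features. Of 60534 shared identifiers 60461 had a symbol; 19310 protein-coding genes entered edgeR 4.0.16 (R 4.3.3): filterByExpr, TMM scaling, 1 fit over all states with robust quasi-likelihood, and 13293 (RNA), 11766 (Ribo) and 11715 (efficiency) genes tested. Replicates differed beyond sampling noise (chi-square per degree of freedom at least 1.79). The test scripts were tested on simulated data. Alternatives were DESeq2 1.42.0, RLE scaling, no filter, fewer states, unstranded counts, a replicate block and leaving out each library. Likeness used a prior count of 2. The members, gene lists and the rule for named genes (all members, up to 4 genes with the smallest adjusted p per list and comparison, and the genes of highest r) were chosen with earlier results of these data known.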

Additional observations from a re-analysis of the deposited data

How the results depend on the processing

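The number of members called kept within 1.5 times its value in 240 of 262 comparisons between a setting and the main analysis. Cases with 0 members called in both are among the 240. MMP10 is counted in this paragraph, although its etoposide calls are not evidence for a rise. The share of all genes called under each setting is not given, so these counts do not set the members apart from other genes. With DESeq2 the counts became 2 in thapsigargin against cycling RNA (from 1), 2 in quiescent against cycling Ribo-seq (from 1) and 2 in irradiated against quiescent Ribo-seq (from 1). Fitting only the groups compared gave 4 in irradiated against cycling RNA (from 2), 2 in thapsigargin RNA, 0 in quiescent Ribo-seq, 6 in irradiated Ribo-seq (from 3), 5 in etoposide Ribo-seq (from 3), and for efficiency 2 in irradiated against cycling and 3 in etoposide against irradiated cells (both from 0). Without a filter on low counts quiescent Ribo-seq gave 0. Leaving out 1 library gave 1 to 2 in irradiated against cycling, in irradiated against quiescent and in thapsigargin RNA, 0 to 2 in quiescent Ribo-seq and 1 to 4 in irradiated against quiescent Ribo-seq.

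The replicate numbers were read as unpaired: the deviations of same-numbered libraries in different states correlated above 0.1 in 9 of 23 pairs in RNA-seq and 6 of 26 in Ribo-seq. Differently numbered libraries did so in 13 of 44 and 5 of 52 pairs. With the replicate block, quiescent against cycling RNA gave 1 member (from 0), TIMP2 (-0.69, adjusted p = 0.0277), the quiescent MMP1 call in Ribo-seq was lost (adjusted p = 0.0611) and thapsigargin efficiency gave 6 members (from 4), adding TIMP1 (-0.73, adjusted p = 0.0423) and TIMP2 (-1.01, adjusted p = 0.00856). That block sets each Ribo-seq library beside the RNA-seq library of its state and number, which the labels describe as harvested in parallel without tying the numbers. Their deviations correlated above 0.1 in 6 of 13 pairs, all 3 etoposide and both cycling pairs among them and neither thapsigargin pair. Where a state has 2 libraries of a kind, their deviations mirror each other, so the pairs counted here are not all separate.

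Changes called, or of at least 0.5 on the log2 scale with a mean of 10 counts per library in 1 group, were followed gene by gene. Of these, 4 reversed: MMP3 in irradiated against quiescent cells without quiescent replicate 3 (0.37 in RNA, where leaving out other libraries gave down to -1.64, and 0.40 in Ribo-seq, down to -1.62), and MMP3 after thapsigargin without Ribo-seq thapsigargin replicate 1 (-7.24, and -8.36 for efficiency), where the remaining library held 0 counts and the size is not a measurement; without replicate 2 the values were 3.10 and 3.00. None of these 4 was called in the main analysis. Depth limits MMP10 in every state but etoposide, MMP12 in every state, and all members in the thapsigargin Ribo-seq libraries.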

Other observations

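The run of MMP genes on chromosome 11 was compared in etoposide and thapsigargin RNA-seq, whose scaled totals were alike (99588400 and 97955200 counts). Besides MMP1, MMP3 and MMP10, MMP8 had 52 counts in etoposide and 11 in thapsigargin cells, with 25 in quiescent and 7 in irradiated cells, and MMP13 had 12 and 3. MMP7 had 10, MMP20 had 4, MMP27 had 3 and MMP12 had 19 in etoposide cells, and all 4 had 0 in thapsigargin cells. Cycling cells, at 46667700 counts, had 8 for MMP8 and 0 for MMP7, MMP20, MMP27, MMP12 and MMP13. These genes were picked out after their counts were seen, so no test is given. The detection was not confined to this run: none of the 8 blood, 6 epithelial or 4 endothelial markers was at 0 counts in etoposide RNA, against 2, 4 and 2 of them in thapsigargin RNA. In irradiated RNA, at a lower scaled total of 77402100 counts, 2, 2 and 0 of them were at 0. In quiescent RNA, at 78017900 counts, 3, 4 and 2 were.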
